A study of Mus musculus with 24 samples.

Results

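The genes described here act at the step from G1 to S phase of the cell cycle. They are the G1 cyclins Ccnd1, Ccnd2, Ccnd3, Ccne1 and Ccne2, the inhibitors of cyclin-dependent kinases (CDKs) Cdkn1a, Cdkn1b and Cdkn2c, the retinoblastoma gene Rb1 and the transcription factor E2f1. They were taken by symbol from the count tables of both experiments of the study, and all 10 were found among the 35022 genes of the first table and the 48709 of the second.

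In G1, D-type cyclins bind and activate CDK4 and CDK6, and E-type cyclins do the same for CDK2. These kinases phosphorylate the RB protein, which then lets go of E2F factors, and E2F factors switch on genes of DNA replication. INK4 proteins such as the product of Cdkn2c block CDK4 and CDK6, whereas CIP/KIP proteins such as p21 (Cdkn1a) and p27 (Cdkn1b) act on cyclin-CDK complexes more broadly. Mouse embryonic stem cells (mESCs) are known for a short G1 phase and for cyclin E and CDK2 activity through most of the cycle.

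The study asked which targets of ERK and Wnt signalling in mESCs depend on substrate stiffness, by RNA-seq of E14 mESCs (strain given as 129m wt). In all groups, cells were held for 12 h on soft or stiff StemBond hydrogels with a fibronectin coat, in 2i + LIF, a medium with LIF (a cytokine that supports self-renewal), 1 µM PD03 (an inhibitor of MEK, the kinase upstream of ERK) and 3 µM CHIRON (an inhibitor of GSK3, which activates Wnt signalling). In the first experiment PD03 was then withdrawn, which left CHIRON + LIF, and in the second CHIRON was withdrawn, which left PD03 + LIF. RNA was collected at 2 h and 12 h, and at 0 h from cells still in 2i + LIF. There were 6 groups per experiment with 2 libraries each, all from 1 cell line. The labels do not say whether the libraries of a group came from separate cultures, so p-values measure only the spread between these libraries, which may be technical.

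Total counts ranged from 16222196 to 26442153 in the 12 libraries of PD03 removal and from 19393787 to 31111260 in 11 libraries of CHIRON removal. The twelfth library of CHIRON removal, of stiff substrates at 2 h, held 171333 counts and was left out, so that group had 1 library, which was assumed to vary like the other groups. The 7 naïve markers Pou5f1, Nanog, Sox2, Esrrb, Zfp42, Klf4 and Tfcp2l1 summed to between 4944 and 7127 CPM (the deposited counts scaled to library size) in every library. Primitive endoderm markers summed to at most 8.40 CPM, fibroblast markers to at most 11.2 CPM and trophoblast markers to at most 39.7 CPM. In the PD03 experiment the trophoblast markers, with Cdx2 the most abundant, summed to between 18.1 and 21.7 CPM at 0 h. At 12 h they summed to between 33.3 and 39.7 CPM. Of these 5 markers 2 were tested there, Cdx2 and Eomes. Both rose at 12 h on each substrate, and Eomes rose by more than Cdx2. The naïve markers there summed to between 6844 and 6997 CPM at 0 h and between 5601 and 5998 CPM at 12 h. At 12 h, 5 of the 7 fell on each substrate (Nanog at -0.38 on soft and -0.55 on stiff substrates on the log2 scale). After CHIRON removal, 12 h brought 3 naïve markers up and 3 down on soft, and 4 up and 2 down on stiff substrates (Nanog at 0.65 and 0.77). The trophoblast markers of that experiment summed to between 15.7 and 19.8 CPM at 0 h and between 8.94 and 11.6 CPM at 12 h. Cdx2 fell there at 12 h, at -5.52 on soft and -6.49 on stiff substrates. The part of these markers in the results below was not tested. In bulk RNA, fewer cells of a type and less RNA per cell cannot be told apart.

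Promoter sequences are shown for 4 members: Ccnd3 and Ccne1, whose levels ran most alike among the 9 genes tested in both experiments, and the inhibitors Cdkn1a and Cdkn1b, which were called in both experiments. E2f1 was also called in both and is not printed. Each covers 250 bases before and 50 bases after a RefSeq start (GRCm38.p6), 5′ to 3′ on the strand of the gene, and capitals mark GGGCGG or its reverse complement, letters that SP1 proteins bind. The windows are chr17:47504801-47505100 (+) for Ccnd3, chr7:38107441-38107740 (-) for Ccne1, chr17:29093519-29093818 (+) for Cdkn1a and chr6:134920151-134920450 (+) for Cdkn1b.
Ccnd3: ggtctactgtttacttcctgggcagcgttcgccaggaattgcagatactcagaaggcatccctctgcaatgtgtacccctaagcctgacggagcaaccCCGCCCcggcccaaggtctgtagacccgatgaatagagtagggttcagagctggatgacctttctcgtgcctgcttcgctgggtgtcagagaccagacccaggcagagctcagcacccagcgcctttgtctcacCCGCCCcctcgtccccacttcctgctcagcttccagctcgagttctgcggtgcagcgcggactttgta
Ccne1: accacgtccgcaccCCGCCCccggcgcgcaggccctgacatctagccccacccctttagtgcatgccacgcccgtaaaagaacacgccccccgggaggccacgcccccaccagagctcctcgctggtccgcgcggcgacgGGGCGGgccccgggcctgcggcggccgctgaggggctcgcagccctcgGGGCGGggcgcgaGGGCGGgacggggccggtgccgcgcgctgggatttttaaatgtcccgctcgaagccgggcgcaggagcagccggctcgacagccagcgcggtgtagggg
Cdkn1a: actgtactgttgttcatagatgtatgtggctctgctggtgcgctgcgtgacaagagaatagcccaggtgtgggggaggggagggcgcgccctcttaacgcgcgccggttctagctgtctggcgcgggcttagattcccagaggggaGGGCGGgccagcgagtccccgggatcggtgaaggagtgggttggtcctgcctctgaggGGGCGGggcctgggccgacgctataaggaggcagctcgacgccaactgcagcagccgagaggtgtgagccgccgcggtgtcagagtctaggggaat
Cdkn1b: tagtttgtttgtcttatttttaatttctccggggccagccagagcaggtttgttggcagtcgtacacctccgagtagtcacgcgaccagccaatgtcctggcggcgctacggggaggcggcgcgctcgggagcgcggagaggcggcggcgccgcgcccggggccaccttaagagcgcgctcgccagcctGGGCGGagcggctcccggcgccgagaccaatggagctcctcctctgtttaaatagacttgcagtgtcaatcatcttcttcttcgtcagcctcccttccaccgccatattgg

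RefSeq promoters were at hand for 6 of the 10 genes, and were not matched for Ccnd1, Ccnd2, Ccne2 and Rb1. GGGCGG was found 4 times in the window of Ccne1, 2 times in that of Ccnd3, 2 times in that of Cdkn1a and 1 time in that of Cdkn1b, and 35.7% of 32851 mouse promoters of the same length held it. A second RefSeq window of Ccnd3, chr17:47593217-47593516 (+), is not printed and held it 2 times. The second RefSeq window of Cdkn1a, chr17:29090729-29091028 (+), held 0. None of these windows held the TCF/LEF letters (CTTTGAT and also its variant CTTTGAA), found in 8.65% of all promoters on either strand. The E2F letters (TTCCCGC, the variant TTCGCGC, the variant TTGCCGC and the variant TTGGCGC), found in 9.57% of all promoters, occurred among the windows of these genes 1 time, in that of Cdkn2c at chr4:109666707-109667006 (-). These matches are descriptions of the letters, not of binding. The windows of E2f1 and Cdkn2c lie wholly inside the annotated genes, so the sequence before the outermost start of either gene was not searched. The matches given, and the lack of E2F letters in the window of E2f1, do not extend to that sequence.

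The genes differed by orders of magnitude in level before withdrawal. Levels between genes are compared as CPM per kilobase of exon in GENCODE M21 (GRCm38), over the 4 libraries at 0 h of an experiment. Exon length joins the exons of all annotated transcripts of a gene, such as 8775 bases for Ccnd3, 4709 for Ccnd1 and 2662 for Ccne1. Which transcripts the cells used was not measured, so the order depends on this choice of length. In the PD03 experiment the order by mean was Ccne1 (median 62.1), Ccnd1 (52.6), Cdkn1a (21.5), Ccnd3 (16.5), Cdkn1b (11.6), Ccne2 (6.94), E2f1 (6.99), Cdkn2c (1.19), Rb1 (1.07) and Ccnd2 (0.042). Neighbours in this order did not overlap over the libraries, except Ccne2 with E2f1 and Cdkn2c with Rb1. By this length Ccne1 had the highest level of the G1 cyclins there. By CPM alone Ccnd1 did, with a mean of 248.7 against 165.2 for Ccne1. Ccnd2 was close to absent, with 4 to 13 counts per library, where 3 counts would be 0.147 to 0.247 CPM.

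In the CHIRON experiment the order by mean at 0 h was Cdkn1a (60.02 CPM per kilobase), Ccne1 (37.0), Ccnd3 (25.6), Ccnd1 (23.8), E2f1 (16.6), Cdkn1b (9.66), Ccne2 (3.29), Rb1 (1.34), Cdkn2c (0.740) and Ccnd2 (0.027), and no neighbours overlapped. Both experiments were in 2i + LIF at this time, yet Cdkn1a held 73.1 to 77.3 CPM in the first and 204.8 to 223.5 CPM in the second. Ccnd1 held 236 to 264 CPM in the first and 109 to 117 CPM in the second, and E2f1 held 19.4 to 24.7 and 49.9 to 59.3 CPM. The labels give the experiments separate sequencing numbers, and they were counted into separate tables, so experiment and run cannot be told apart and these levels were not tested against each other.

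**Figure D1:**
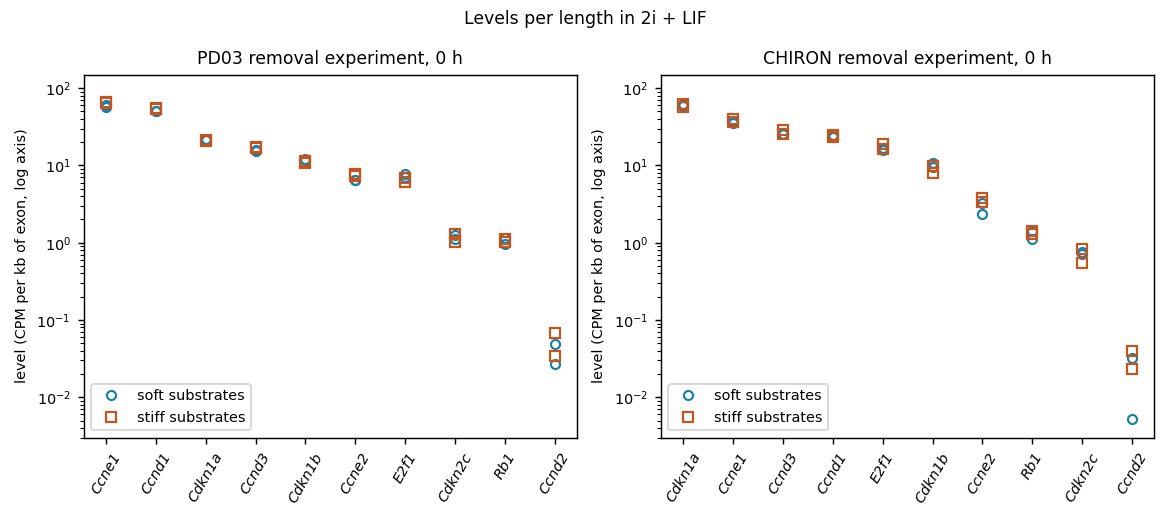
Level of each gene at 0 h in CPM per kilobase of exon (log axis), one point per library, circles for soft and squares for stiff substrates, in order of the mean, for the PD03 experiment (left) and the CHIRON experiment (right). Ccne1 led in the first with a median of 62.1 and Cdkn1a in the second with 60.02, and Ccnd2 lay lowest in both.

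Removal of PD03 was followed at 12 h by higher transcripts of Ccnd2, Ccnd3 and Ccne1 and by lower Cdkn1b on both substrates. Of the 10 genes, 4 rose and 1 fell on soft substrates, where 14.1% of 13423 tested genes rose and 15.3% fell. On stiff substrates 4 rose and 2 fell, where 18.5% of all tested genes rose and 19.9% fell. The median log2 fold change of the 10 genes was 0.16 on soft and 0.067 on stiff substrates, and that of all tested genes was -0.0013 and -0.0014. Here and below, calls are those of edgeR's quasi-likelihood test at a Benjamini-Hochberg adjusted p under 0.05 over all tested genes, and fold changes are log2 values with their standard errors (SE).

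Ccnd2 (chr6:127125162-127152193, minus strand), a D-type cyclin, had the largest fold of the 10 genes. On soft substrates it read 0.46 and 0.25 CPM at 0 h, 0.43 and 0.48 CPM at 2 h, and 1.93 and 2.87 CPM at 12 h. On stiff substrates it read 0.32 and 0.64 CPM at 0 h, 0.39 and 1.08 CPM at 2 h, and 3.24 and 2.56 CPM at 12 h. All 12 h libraries lay above all earlier ones, and the 2 h libraries overlapped those of 0 h. The log2 fold change at 12 h was 2.71 (SE 0.47) on soft and 2.52 (SE 0.43) on stiff substrates, a 6.52-fold and a 5.75-fold rise (edgeR, adjusted p = 6.4e-05 and 2.9e-05). The counts behind this rose from 4 to 13 per library at 0 h to 28 to 45 at 12 h. Even then Ccnd2 was rarer than the other members per kilobase of joined exons. By CPM alone it had a mean of 2.90 on stiff substrates at 12 h, beside 2.49 for Cdkn2c. The call held in all 4 fits that left out 1 library on each substrate, with log2 fold changes from 2.37 to 3.20 on soft and from 2.18 to 3.13 on stiff substrates, the last without stiff 0 h replicate 2.

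Ccnd3 (chr17:47505051-47599691, plus strand) encodes another D-type cyclin and had at least 1861 counts per library. It measured 134.7 and 140.9 CPM at 0 h, 144 and 148 CPM at 2 h, and 174.5 and 183 CPM at 12 h on soft substrates. On stiff substrates the values were 148 and 150.2 CPM, then 176 and 165 CPM, then 199 and 191 CPM. The 3 times did not overlap on either substrate. At 12 h the log2 fold change was 0.38 (SE 0.050) on soft and 0.39 (SE 0.050) on stiff substrates (edgeR, adjusted p = 1.4e-06 and 4.1e-07), and was called in every fit that left out 1 library. At 2 h it was 0.09 on soft (adjusted p = 0.57) and 0.20 on stiff substrates (adjusted p = 0.023), and the latter call was lost without stiff 0 h replicate 1 (adjusted p = 0.18), stiff 0 h replicate 2 (0.12) or stiff 2 h replicate 1 (0.27), with all genes tested (0.050) and with the compared groups alone (0.075).

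Ccne1 (chr7:38097984-38107534, minus strand) encodes cyclin E1, the partner of CDK2 at entry to S phase. On soft substrates it read 153 and 159 CPM at 0 h, 152.5 and 162 CPM at 2 h, and 204 and 214 CPM at 12 h. On stiff substrates it read 177 and 171 CPM at 0 h, 174 and 166 CPM at 2 h, and 231 and 223 CPM at 12 h. Levels at 2 h overlapped those of 0 h, and those of 12 h stood above both. Against 0 h the change at 12 h was 0.42 on the log2 scale (SE 0.050) on soft and 0.39 (SE 0.050) on stiff substrates (edgeR, adjusted p = 1.8e-07 and 4.3e-07), and was called without any 1 library.

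Ccnd1 (chr7:144929931-144939925, minus strand), the D-type cyclin with the highest CPM in this experiment, was called in opposite directions on the 2 substrates. On soft substrates it read 240.5 and 236 CPM at 0 h, 226 and 216.5 CPM at 2 h, and 259 and 261 CPM at 12 h. On stiff substrates it read 263.5 and 255 CPM at 0 h, 224 and 219 CPM at 2 h, and 237 and 232 CPM at 12 h. Both substrates were lowest at 2 h, and at 12 h soft libraries lay above their 0 h level and stiff libraries below theirs. At 12 h the log2 fold change was 0.12 (SE 0.045, adjusted p = 0.039) on soft and -0.14 (SE 0.046, adjusted p = 0.016) on stiff substrates by edgeR. Of 13423 genes, 2 were called in opposite directions at 12 h, and Ccnd1 was 1 of them.

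The test of the difference itself did not pass for Ccnd1: the response on soft minus that on stiff substrates was 0.26 (95% interval 0.13 to 0.40, edgeR, adjusted p = 0.26). The call on soft substrates was lost without any 1 of its 4 libraries (adjusted p from 0.087 to 0.15) and with no filter on low counts (0.061). The call on stiff substrates was lost without stiff 0 h replicate 1 (adjusted p = 0.12) or stiff 12 h replicate 2 (0.11). At 2 h, Ccnd1 fell by 0.23 on the log2 scale (SE 0.046, edgeR, adjusted p = 0.0027) on stiff substrates, a call lost without stiff 0 h replicate 1 (0.070) or stiff 2 h replicate 2 (0.051), and it read -0.11 (SE 0.046, adjusted p = 0.33) on soft substrates.

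Ccne2 (chr4:11191351-11204779, plus strand) encodes the second E-type cyclin and was not called at either time, except at 12 h on stiff substrates when the compared groups alone were fitted (edgeR, adjusted p = 0.0496). It ranged from 22.6 to 31.8 CPM over the 12 libraries. The log2 fold change at 12 h was 0.16 (SE 0.098, edgeR, adjusted p = 0.25) on soft and 0.23 (SE 0.095, adjusted p = 0.061) on stiff substrates, where both 12 h libraries, 29.6 and 31.8 CPM, lay above both 0 h libraries, 27.0 and 25.6 CPM.

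Of the CDK inhibitors, Cdkn1a was called at 2 h and Cdkn1b at 12 h, and 12 h was not tested against 2 h. Cdkn1a (chr17:29090976-29100727, plus strand) encodes p21, a CIP/KIP inhibitor known as a target of p53. It measured 76.0 and 77.3 CPM at 0 h, 64.4 and 61.7 CPM at 2 h, and 70.1 and 77.6 CPM at 12 h on soft substrates. The stiff values were 73.1 and 76.6 CPM, then 61.6 and 61.6 CPM, then 72.7 and 65.0 CPM. Every 2 h library lay below every 0 h library. At 2 h the log2 fold change was -0.28 (SE 0.067) on soft and -0.28 (SE 0.066) on stiff substrates, and at 12 h it was -0.052 and -0.12 (edgeR, adjusted p = 0.018, 0.011, 0.59 and 0.16).

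These 2 h calls rested on few libraries. On soft substrates the call on Cdkn1a was lost without any 1 of its 4 libraries (adjusted p from 0.077 to 0.21). On stiff substrates it was lost without stiff 0 h replicate 2 (0.17), stiff 2 h replicate 1 (0.080) or stiff 2 h replicate 2 (0.080). At 2 h, the 1 of 10 members that fell on soft substrates was Cdkn1a, where 0.648% of all tested genes fell and 1.31% rose, and no member rose there (4 of 10 members and 1587 of all 13423 genes had an unadjusted p under 0.05, and DESeq2 called 1 member). On stiff substrates Ccnd1 and Cdkn1a fell and Ccnd3 rose, where 0.894% of all genes fell and 1.83% rose.

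Cdkn1b (chr6:134920401-134925513, plus strand) encodes p27, the other CIP/KIP inhibitor of the set. Levels on soft substrates were 55.1 and 54.1 CPM at 0 h, 48.2 and 49.4 CPM at 2 h, and 42.5 and 50.7 CPM at 12 h. Those on stiff substrates were 51.7 and 48.6 CPM, then 41.3 and 46.7 CPM, then 43.9 and 42.3 CPM. The 0 h libraries stood above all later ones of their substrate. At 2 h Cdkn1b read -0.16 (SE 0.079) on soft and -0.19 (SE 0.080) on stiff substrates on the log2 scale (edgeR, adjusted p = 0.42 and 0.28). The log2 fold change at 12 h was -0.23 (SE 0.078) on soft and -0.21 (SE 0.081) on stiff substrates (edgeR, adjusted p = 0.029 and 0.037). DESeq2 did not call it on either (adjusted p = 0.078 and 0.090), nor did edgeR with all genes tested (0.051 and 0.057). The call was lost without soft 0 h replicate 1 (0.12), soft 0 h replicate 2 (0.090) or soft 12 h replicate 1 (0.45, with a log2 fold change of -0.10), and without stiff 0 h replicate 1 (0.19), stiff 12 h replicate 1 (0.086) or stiff 12 h replicate 2 (0.17).

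Cdkn2c (chr4:109660876-109667189, minus strand) encodes the INK4 inhibitor p18 and was low, with 28 to 70 counts per library. At 12 h it read 4.54 and 3.71 CPM on soft and 2.66 and 2.31 CPM on stiff substrates, from 3.39 and 2.98 CPM and from 2.73 and 3.43 CPM at 0 h. Its log2 fold change was 0.37 (SE 0.23, edgeR, adjusted p = 0.24) on soft and -0.32 (SE 0.26, adjusted p = 0.35) on stiff substrates. At 12 h soft minus stiff was 0.72 (95% interval 0.21 to 1.23, edgeR, adjusted p = 0.24), which did not pass.

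Rb1 (chr14:73183673-73325822, minus strand), whose protein restrains E2F factors, ranged from 4.75 to 7.81 CPM and was not called. Its log2 fold change at 12 h was 0.15 (SE 0.18) on soft and -0.090 (SE 0.18) on stiff substrates (edgeR, adjusted p = 0.56 and 0.74). E2f1 (chr2:154559407-154569892, minus strand), an activating E2F factor, read 22.1 and 24.7 CPM at 0 h and 27.9 and 24.6 CPM at 12 h on soft substrates, and 19.4 and 22.0 CPM and then 23.8 and 27.0 CPM on stiff substrates. The groups overlapped on soft and not on stiff substrates. Its log2 fold change at 12 h was 0.16 (SE 0.10, adjusted p = 0.23) on soft and 0.29 (SE 0.10, adjusted p = 0.027) on stiff substrates by edgeR. The latter was not called by DESeq2 (0.063), nor without stiff 0 h replicate 1 (0.20) or stiff 12 h replicate 2 (0.26).

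**Figure D2:**
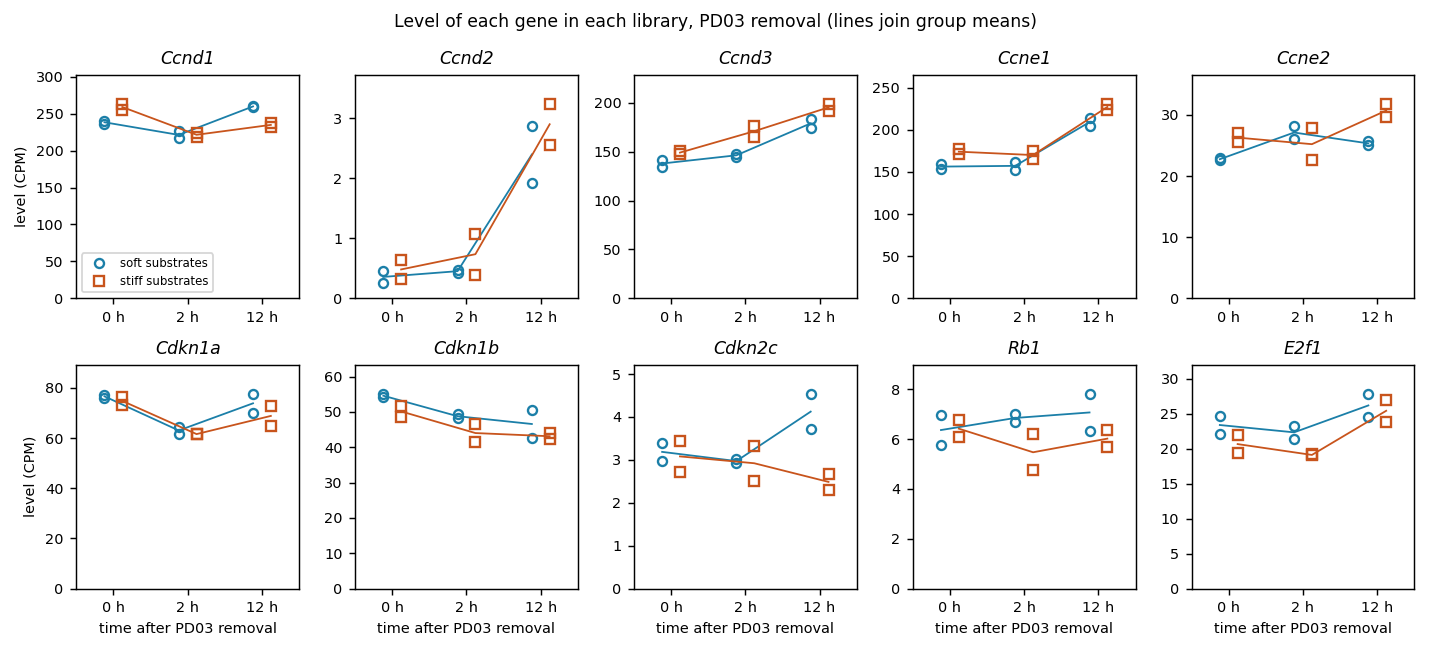
Level of each gene (CPM, axes from 0) in each of the 12 libraries of PD03 removal against time, circles for soft and squares for stiff substrates, with lines that join group means. The 12 h libraries of Ccnd2, Ccnd3 and Ccne1 sit above those of 0 h on both substrates, and Ccnd1 at 12 h sits at 259 to 261 CPM on soft and 232 to 237 CPM on stiff substrates.

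Removal of CHIRON was followed by lower Cdkn1a and higher Cdkn1b at 12 h on both substrates, and Ccnd1 was the one cyclin called. Of the 10 genes, 9 passed the filter on low counts, and Ccnd2, with 1 to 14 counts per library, was not tested. On soft substrates 1 of the 9 rose and 2 fell at 12 h, where 10.4% of 14145 tested genes rose and 7.95% fell. On stiff substrates 1 rose and 2 fell, where 9.45% of all genes rose and 8.14% fell. The median log2 fold change of the 9 genes was 0.063 on soft and 0.12 on stiff substrates, and that of all tested genes was 0.0086 and 0.0045.

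Cdkn1a on soft substrates read 223.5 and 207 CPM at 0 h, 150.4 and 133 CPM at 2 h, and 141.5 and 141 CPM at 12 h. On stiff substrates it read 205 and 219 CPM at 0 h, 171 CPM in the 1 library at 2 h, and 118 and 139 CPM at 12 h. No library after removal reached the 0 h level. At 12 h its log2 fold change was -0.61 (SE 0.087) on soft and -0.72 (SE 0.087) on stiff substrates, a 1.52-fold and a 1.65-fold lower level (edgeR, adjusted p = 8.2e-05 and 1.4e-05), and was called without any 1 library. A fit that kept the library of 171333 counts did not call Cdkn1a (adjusted p = 1.0 on each substrate), nor any other member at 12 h.

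At 2 h Cdkn1a fell by 0.60 on the log2 scale on soft substrates (SE 0.087, edgeR, adjusted p = 0.0029). This was 1 of the 9 tested members, where 0.0636% of all tested genes fell and 0.12% rose. The call was lost without soft 0 h replicate 1 (adjusted p = 0.11), without soft 2 h replicate 2 (0.086) with the tube number of the labels as a block (0.060) and with the library of 171333 counts (1.0). On stiff substrates at 2 h the log2 fold change was -0.31 (SE 0.11, adjusted p = 0.56), with 1 library, and 0 of 9 members were called by edgeR or DESeq2 (1 member and 1001 of all 14145 genes had an unadjusted p under 0.05), where 0.0495% of all genes rose and 0.0495% fell. The difference between the 2 responses at 2 h was -0.29 (95% interval -0.58 to -0.0034, edgeR, adjusted p = 1.0).

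Cdkn1b held 48.8 and 43.0 CPM at 0 h, 42.4 and 44.3 CPM at 2 h, and 66.9 and 69.3 CPM at 12 h on soft substrates. The stiff libraries held 44.9 and 36.4 CPM, then 40.5 CPM, then 57.3 and 60.5 CPM. All 12 h libraries lay above all others of the experiment, and those of 2 h overlapped with 0 h. At 12 h its log2 fold change was 0.57 (SE 0.10) on soft and 0.54 (SE 0.10) on stiff substrates, a 1.48-fold and a 1.45-fold rise (edgeR, adjusted p = 0.00069 and 0.0014), and was called without any 1 library, but not with the library of 171333 counts (0.098 and 0.13). In the other experiment Cdkn1b fell by 0.23 and 0.21 at the same time, so the sign of its call differed between the withdrawals, which share no library. The difference between experiments was not tested.

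Cdkn2c, the INK4 gene, read 1.92 and 2.06 CPM at 0 h and 2.98 and 3.31 CPM at 12 h on soft substrates, and 1.46 and 2.22 CPM and then 2.42 and 2.37 CPM on stiff substrates. The 12 h libraries lay above those of 0 h on both. With 27 to 79 counts per library, its log2 fold change of 0.65 (SE 0.29) on soft and 0.38 (SE 0.31) on stiff substrates did not pass (edgeR, adjusted p = 0.14 and 0.45).

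Of the cyclins, Ccnd1 was called at 12 h, on soft substrates. It read 109 and 116 CPM at 0 h and 91.3 and 93.8 CPM at 12 h there, and 109 and 117 CPM and then 97.6 and 100.1 CPM on stiff substrates. The times did not overlap on either substrate. Its log2 fold change was -0.28 (SE 0.079, adjusted p = 0.021) on soft and -0.19 (SE 0.079, adjusted p = 0.11) on stiff substrates by edgeR. The call was lost without soft 0 h replicate 1 (0.053), soft 0 h replicate 2 (0.17) or soft 12 h replicate 1 (0.11) and with the tube block (0.063).

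Ccnd3 went from 226 and 221 CPM to 246 and 268 CPM on soft and from 250 and 224 CPM to 264 and 268 CPM on stiff substrates between 0 h and 12 h, and Ccne1 from 99.3 and 93.1 CPM to 100.6 and 101.0 CPM and from 97.8 and 107 CPM to 117 and 118 CPM. Neither gene overlapped between these times on either substrate, and neither was called: the log2 fold changes were 0.20 (SE 0.081) and 0.17 (SE 0.081) for Ccnd3 and 0.068 (SE 0.075) and 0.20 (SE 0.075) for Ccne1 (edgeR, adjusted p = 0.096, 0.18, 0.59 and 0.082). Ccne2 ranged from 7.17 to 13.2 CPM and read 0.063 (SE 0.18) on soft and -0.32 (SE 0.18) on stiff substrates, and was not called. Ccnd2 stayed between 0.049 and 0.55 CPM, where 3 counts would be 0.113 to 0.195 CPM, and the 2 libraries of 12 h on soft substrates, 0.53 and 0.32 CPM, lay above those of 0 h there, 0.049 and 0.30 CPM, whereas the stiff libraries of these times overlapped.

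E2f1 read 52.6 and 49.9 CPM at 0 h and 48.7 and 52.3 CPM at 12 h on soft substrates, and 52.0 and 59.3 CPM and then 43.0 and 48.3 CPM on stiff substrates. The groups overlapped on soft and stood apart on stiff substrates. The log2 fold change was -0.022 (SE 0.094, adjusted p = 0.91) on soft and -0.29 (SE 0.095, adjusted p = 0.047) on stiff substrates by edgeR. The latter was not called by DESeq2 (0.051), nor by edgeR with all genes tested (0.072), the replicate number as a block (0.054) or the tube block (0.10), nor without stiff 0 h replicate 2 (0.31), stiff 12 h replicate 1 (0.30) or stiff 12 h replicate 2 (0.063). Rb1 ranged from 6.68 to 9.20 CPM and read 0.0066 (SE 0.17) on soft and 0.12 (SE 0.17) on stiff substrates, with no call.

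**Figure D3:**
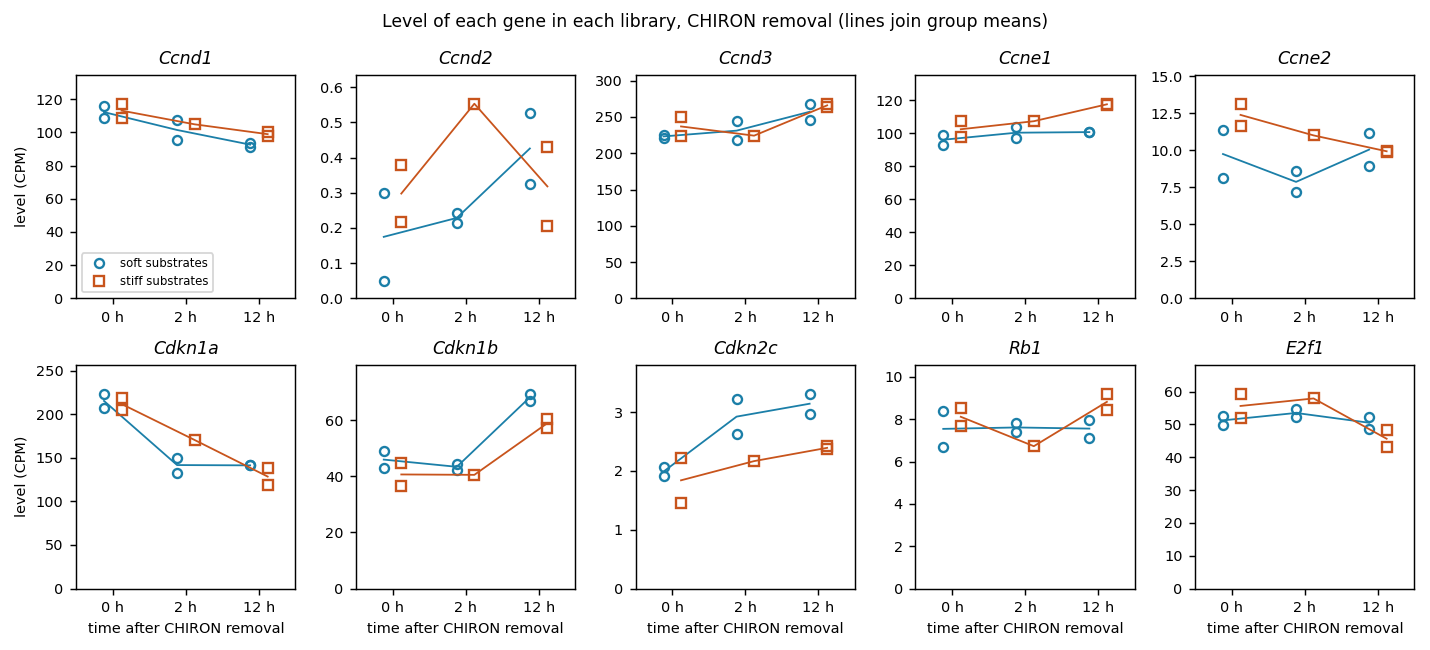
Level of each gene (CPM, axes from 0) in each of the 11 libraries of CHIRON removal against time, circles for soft and squares for stiff substrates, with lines that join group means. Cdkn1a sits at 204.8 to 223.5 CPM at 0 h and 118 to 141.5 CPM at 12 h, and Cdkn1b at 36.4 to 48.8 CPM and 57.3 to 69.3 CPM.

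**Figure D4:**
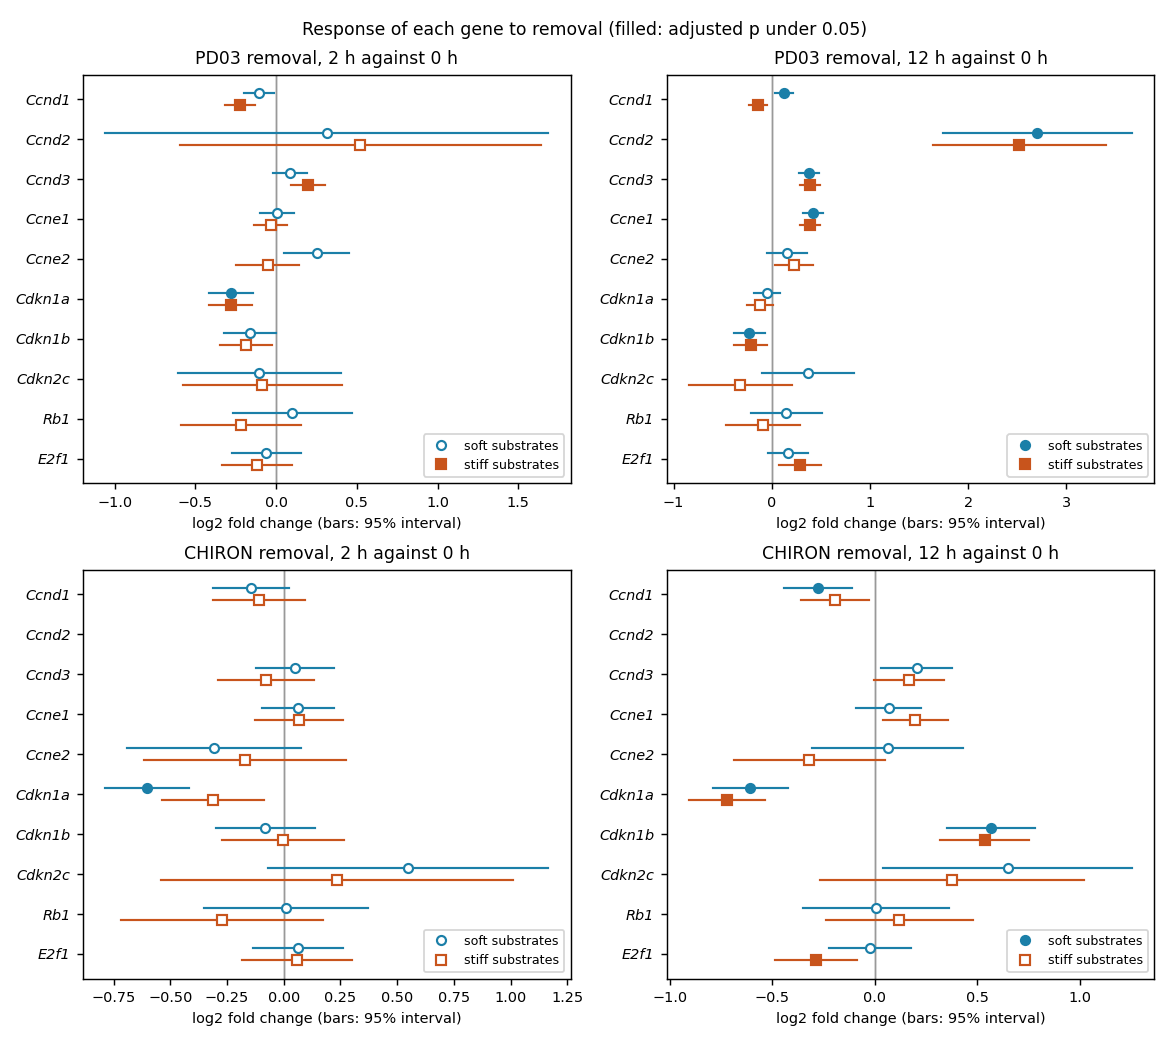
Log2 fold change of each gene at 2 h (left) and 12 h (right) against 0 h after PD03 removal (top) and CHIRON removal (bottom), circles for soft and squares for stiff substrates, with 95% intervals and filled points for an adjusted p under 0.05. Ccnd2, Ccnd3 and Ccne1 lie to the right at 12 h of PD03 removal on both substrates, and at 12 h of CHIRON removal Cdkn1a lies at -0.61 and -0.72 and Cdkn1b at 0.57 and 0.54.

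No gene of the set was called between soft and stiff substrates at any time in either experiment. After PD03 removal, edgeR and DESeq2 each called 0 of 10 genes at 0 h, 2 h and 12 h, where 0.0298%, 0.134% and 0.767% of all tested genes were called by edgeR. At an unadjusted p under 0.05 there were 4, 3 and 5 of the 10, and 969, 1148 and 1295 of all 13423 genes. DESeq2 gave no adjusted p for 6 of the 10 at 2 h and for 2 at 12 h. After CHIRON removal both tools called 0 of 9, and edgeR called 0% of all tested genes at each time. At an unadjusted p under 0.05 there were 0, 2 and 1 of the 9, and 494, 805 and 464 of all 14145 genes. The differences in response between substrates gave 0 calls among the members by both tools as well, where edgeR called 0.00745% of all genes at 2 h and 0% at 12 h after PD03 removal and 0% at each time after CHIRON removal. At an unadjusted p under 0.05 there was 1 member at each time after PD03 removal (606 and 901 of all genes), and 1 and 0 after CHIRON removal (421 and 419).

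Ccne1 and Ccnd3 kept to one side of 0 in the PD03 experiment, but were not alone in this. By group means, Ccnd2 was also lower on soft substrates at each time, and Cdkn1a, Cdkn1b, Cdkn2c and E2f1 were higher. Each of these overlapped between substrates at some time. How many of all tested genes keep to one side was not counted. Ccne1 was lower on soft substrates at all 3 times with no overlap of libraries, by -0.15 (95% interval -0.26 to -0.052) at 0 h, -0.11 (-0.22 to -0.0087) at 2 h and -0.12 (-0.22 to -0.018) at 12 h (edgeR, adjusted p = 0.46, 0.53 and 0.39). Ccnd3 was also lower on soft substrates in all libraries of each time, by -0.11 (95% interval -0.22 to -0.010), -0.23 (-0.33 to -0.12) and -0.13 (-0.23 to -0.025), with adjusted p = 0.66, 0.080 and 0.33. With no filter on low counts the difference of Ccnd3 at 2 h was called (edgeR, adjusted p = 0.013). A p that misses the threshold does not show that the substrates act alike.

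After CHIRON removal, Ccne1 at 12 h was again lower on soft substrates, at 100.6 and 101.0 CPM against 117 and 118 CPM, a difference of -0.22 (95% interval -0.38 to -0.064, edgeR, adjusted p = 1.0). At 0 h its libraries overlapped, with a difference of -0.093 (-0.25 to 0.067). Ccnd3 overlapped between substrates at all 3 times of this experiment. Cdkn1b read higher on soft substrates in all 6 differences of the 2 experiments, between 0.099 and 0.21, and was called in none. Its libraries overlapped between substrates at 12 h of PD03 removal and at 0 h of CHIRON removal. The difference at 2 h of CHIRON removal rests on 1 stiff library. The low-count gene Cdkn2c was likewise higher on soft substrates in all 6 by group means, and was called in none. How many of all tested genes keep to one side in all 6 was not counted either.

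**Figure D5:**
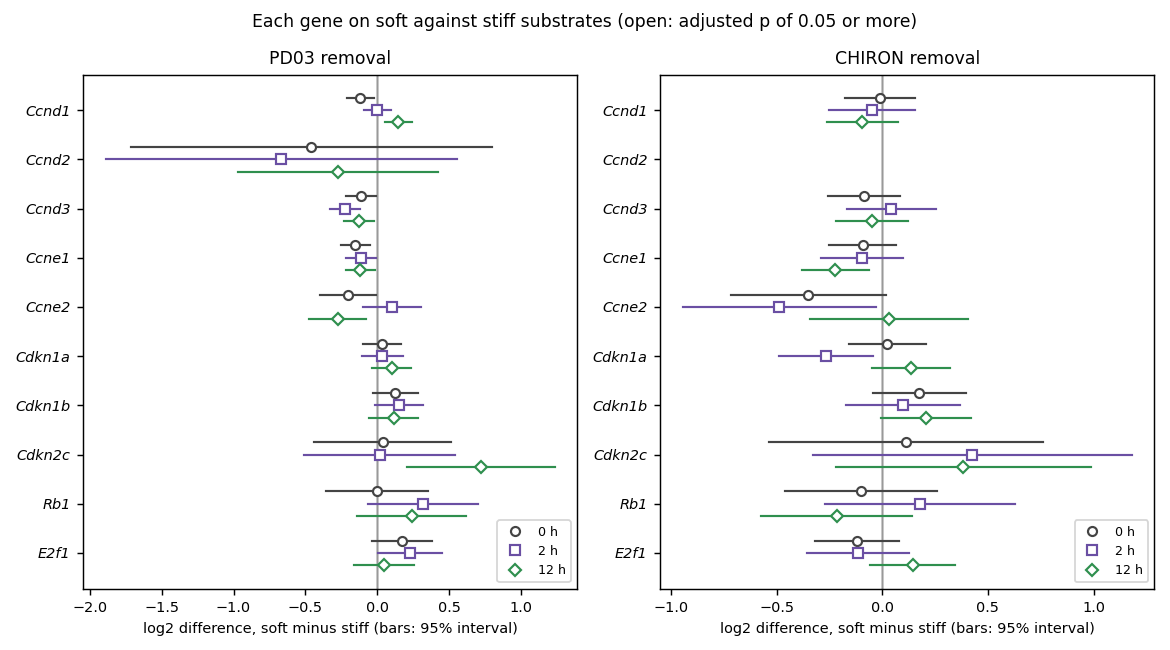
Log2 difference of each gene, soft minus stiff substrates, at 0 h (circles), 2 h (squares) and 12 h (diamonds) in the PD03 experiment (left) and the CHIRON experiment (right), with 95% intervals; open points did not pass. Ccne1, Ccnd3 and Ccnd2 lie left of 0 at all 3 times of the PD03 experiment, and no point is filled.

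The counts of the lists that follow are to be read beside the shares of all tested genes. At 12 h of PD03 removal 14.1% rose and 15.3% fell on soft and 18.5% rose and 19.9% fell on stiff substrates, and at 12 h of CHIRON removal 10.4% rose and 7.95% fell on soft and 9.45% rose and 8.14% fell on stiff substrates. Among 13 genes of the G1 kinases and their regulators, 3 rose and 3 fell on each substrate at 12 h of PD03 removal, with medians of 0.0011 on soft and 0.037 on stiff substrates. Cdk6, the partner of D-type cyclins, rose by 0.27 (SE 0.052) on soft and 0.21 (SE 0.051) on stiff substrates, and Skp2, which marks p27 for degradation, by 0.20 and 0.18 (SE 0.058 each). Mnat1, a subunit of the CDK-activating kinase, read -0.36 and -0.35, and Cul1, the scaffold of SCF ubiquitin ligases, -0.20 and -0.29, all called on both substrates. After CHIRON removal 1 rose and 2 fell on soft, and 1 rose and 3 fell on stiff substrates.

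Cdk6 had the largest change of that list after CHIRON removal, at -1.26 (SE 0.097) on soft and -1.25 (SE 0.097) on stiff substrates (edgeR, adjusted p = 1.0e-07 and 1.1e-07). Cdk4, the other kinase of D-type cyclins, read -0.33 and -0.34 (SE 0.073 and 0.074), and Cks1b, which helps SCF ligases bind p27, rose by 0.34 and 0.41 (SE 0.098 and 0.099). The sign of the call on Cdk6 therefore differed between the 2 withdrawals, as it did for Cdkn1b. It also differed for Ccnd1 on soft substrates and for E2f1 on stiff substrates. The calls on these members after PD03 removal were lost under several alternatives, as were those on Ccnd1 and E2f1 after CHIRON removal.

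The other 4 INK4 and CIP/KIP inhibitors were not called after PD03 removal by edgeR or DESeq2, with 0 at an unadjusted p under 0.05 at either time on either substrate (DESeq2 gave no adjusted p for 1 of them at 2 h on soft substrates). After CHIRON removal Cdkn2d, which encodes p19, rose at 12 h on both substrates, by 0.56 (SE 0.18) and 0.65 (SE 0.19) (edgeR, adjusted p = 0.035 and 0.022). Cdkn1c, which encodes p57, rose on soft substrates by 1.13 (SE 0.36, adjusted p = 0.039) and read 0.84 (SE 0.38, adjusted p = 0.14) on stiff substrates. Cdkn1b and Cdkn2d thus rose on both substrates in this experiment while Cdkn1a fell.

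Of 11 other pocket proteins, E2F and DP factors, 4 rose and 1 fell on soft and 7 rose and 1 fell on stiff substrates at 12 h of PD03 removal, with medians of 0.17 and 0.23. E2f2, an activating factor, rose by 0.89 (SE 0.14) on soft and 1.49 (SE 0.13) on stiff substrates, and E2f8, an atypical repressor, by 0.50 (SE 0.10) and 0.96 (SE 0.10) (edgeR, adjusted p from 4.3e-10 to 0.00042). E2f5 read -0.28 and -0.27. After CHIRON removal 2 rose and 2 fell on soft and 3 rose and 1 fell on stiff substrates. Tfdp2, a partner of E2F factors, rose by 0.54 and 0.60, E2f7 rose by 0.32 and 0.38, and Tfdp1 read -0.44 and -0.37, all called on both.

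Downstream are 22 genes of DNA replication known as E2F targets. At 12 h of PD03 removal 3 of them rose and 3 fell on soft and 3 rose and 6 fell on stiff substrates, with medians of 0.0078 and -0.081. The licensing factors Cdc6 (0.20 and 0.29) and Cdt1 (0.17 and 0.22) rose, while the helicase subunit Mcm6 (-0.12 and -0.22) fell. At 12 h of CHIRON removal 0 rose and 2 fell on soft and 2 rose and 2 fell on stiff substrates. Of the 22, 5 and 7 had an unadjusted p under 0.05 there, and DESeq2 called 2 and 3. Cdt1 was the gene called on both, at -0.23 and -0.28.

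Of 12 mitotic genes, 8 rose at 12 h of CHIRON removal on each substrate, where 10.4% and 9.45% of all genes rose, and 0 fell, where 7.95% and 8.14% fell, with medians of 0.30 and 0.26 beside 0.0086 and 0.0045 over all genes. Aurka (0.46 and 0.52, SE 0.070 each) and Plk1 (0.39 and 0.40, SE 0.075 each), kinases that act in mitosis, were among them. On each, 10 had an unadjusted p under 0.05, and DESeq2 called 7 and 5. At 12 h of PD03 removal 3 rose and 2 fell on soft, and 4 rose and 4 fell on stiff substrates. Foxm1 (0.34 and 0.42) and Plk1 (0.33 and 0.29) rose there, and Cdk1 (-0.13 and -0.23) and Ccnb1 (-0.13 and -0.13) fell.

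Of 12 other p53 targets, at 12 h of CHIRON removal 2 rose and 2 fell on soft and 0 rose and 2 fell on stiff substrates (6 on each had an unadjusted p under 0.05, and DESeq2 called 4 and 2), with Trp53inp1 at -0.26 and -0.36 and Aen at -0.23 and -0.27. At 12 h of PD03 removal, where Cdkn1a was not called, Gadd45a rose by 0.94 and 1.10 and Pmaip1 by 0.69 and 1.27, while Btg2 read -0.32 and -0.48 and Trp53inp1 -0.34 and -0.40.

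Targets of ERK and Wnt signalling changed under both withdrawals. Of 8 ERK response genes 7 rose at 2 h on each substrate of PD03 removal and 4 at 12 h, with Dusp6, a phosphatase of ERK, at 1.13 (SE 0.062) and 1.33 (SE 0.059) at 12 h and Dusp4 at 1.36 and 2.13. Of 8 Wnt response genes 7 fell at 12 h on each substrate of CHIRON removal, with Sp5 at -6.07 (SE 0.13) and -5.78 (SE 0.13) and T at -4.80 and -5.90, and 1, Notum, rose by 0.51 and 0.77. After PD03 removal 5 of these Wnt response genes rose and 1 fell at 12 h on each substrate, with T at 1.38 and 1.57 and Notum at -0.21 and -0.41. Of the ERK response genes, 0 rose and 3 fell on soft and 0 rose and 2 fell on stiff substrates at 12 h of CHIRON removal, with Spry2 at -1.32 and -1.22 (4 and 5 had an unadjusted p under 0.05, and DESeq2 called 3 and 2).

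Over the 23 libraries, each gene centred within its experiment, the members most alike in log2 CPM were Ccnd3 and Ccne1 (Pearson r = 0.82) and then Ccnd1 and Cdkn1a (r = 0.79). These libraries share cell line, medium and time course, so r is given as a description. Among 13088 genes tested in both experiments, those most like Cdkn1b were Ephb4 (r = 0.93) and Pramef12 (0.92), and those most like Ccnd3 were Midn and Llgl2 (0.92 each). Ccne1 ran most like E2f7 (0.92) and Kif18b (0.91), E2f1 like Wdr24 (0.83) and Camkk2 (0.81), and Cdkn1a like Slc30a2 (0.83) and Patz1 (0.81). For Ccnd1 they were Fam118a (0.80) and Cdkn1a (0.79). The most alike genes of Ccne2 (Dctpp1 at 0.75 and Surf6 at 0.71), Cdkn2c (Pla2g4f at 0.76 and Nrarp at 0.75) and Rb1 (Tubg2 at 0.71 and Hsd3b7 at 0.66) were less close.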

How the data were processed

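RNA of E14 mESCs was sequenced in 24 libraries. The authors depleted ribosomal RNA, trimmed reads with Trim Galore, aligned them to GRCm38 with TopHat2 and counted reads per gene with featureCounts on an Ensembl annotation, and deposited whole-number counts with no scaling. Whether reads were assigned by strand is not given in the sources used here, which leaves genes that overlap or lie antisense uncertain. Of the rows, 23 without a gene name were left out, and 12 columns of other samples were not used.

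The 10 genes, the gene lists and the tests were chosen with earlier results of these data known. From the deposited counts, protein-coding genes (GENCODE M21) were tested if at least 2 libraries reached the CPM that equals 10 counts at the median library size. A total of 15 counts was also required. The test was that of edgeR 4.0.16 (R 4.3.3), with TMM scaling and a quasi-likelihood fit over all groups of an experiment. Benjamini-Hochberg adjustment ran over 13423 genes for PD03 removal and 14145 for CHIRON removal, with a threshold of 0.05. CPM used TMM-scaled totals. The 3-count floor covers counting error only. Of each other list, the 2 genes that rose most and the 2 that fell most at 12 h were named, by the mean of both substrates, among those called the same way on both; Cdkn1c was named after its values were seen, and 1 gene that the rule names is not reported here. Alternatives were DESeq2 1.42.0, its size factors, no filter, all genes, the compared groups alone, blocks for replicate or tube number, and each library left out. The code was tested on simulated data.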

Additional observations from a re-analysis of the deposited data

How the results depend on the processing

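The calls on Ccnd2, Ccnd3 and Ccne1 at 12 h of PD03 removal held on both substrates under every alternative run. Those on Cdkn1a and Cdkn1b at 12 h of CHIRON removal held on both under all but 1, the fit that kept the library of 171333 counts (adjusted p = 1.0 on each substrate for Cdkn1a, 0.098 and 0.13 for Cdkn1b). With that library the count of members called fell to 0 on soft substrates at 2 h and to 0 on each substrate at 12 h. With the tube block it was 0 on soft substrates at 2 h. With no filter on low counts, 1 member (Ccnd3) was called between soft and stiff substrates at 2 h of PD03 removal. No direction of a called value was reversed by any alternative run.

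When 1 library was left out, the count of members called after PD03 removal was 0 in every fit at 2 h on soft substrates (1 with all libraries), 1 in every fit at 2 h on stiff (3), 3 to 4 at 12 h on soft (5) and 3 to 6 at 12 h on stiff substrates (6). After CHIRON removal it was 0 to 1 at 2 h on soft substrates (1) and 2 to 3 at 12 h on each (3). The lone library left in a group was assumed to vary like the other groups. Over the other alternatives, 1156 of 1179 fold changes of the members kept direction and side of the threshold, 21 lost their call and 2 gained one (Ccnd3 above, and Ccne2 at 12 h of PD03 removal on stiff substrates). Most of the 1179 belong to comparisons where the member was not called to begin with, and so had no call to lose.

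The replicate numbers did not pair the samples: deviations of same-numbered libraries correlated at -0.052 to 0.11 over 15 pairs of groups (PD03) and -0.11 to 0.063 over 10 (CHIRON). With a replicate block the count of members called was the same in every comparison except 12 h of CHIRON removal on stiff substrates, where it was 2 in place of 3. Depth limits Ccnd2 and Cdkn2c most, with 1 to 45 and 27 to 79 counts per library.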
